A study of Rattus norvegicus with 6 samples.

Results

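The nuclear genes for the subunits of the oxidative phosphorylation complexes were described in brain RNA from 6 aged rats, 3 of them given cranial manipulation. Members were set by a rule on gene symbols with no measured value, though earlier results of these data were known when it was proposed. The rule took symbols that start with Nduf, Uqcr or Atp5 and the Sdh genes with a final letter a to d. It also took the Cox genes numbered 4 to 8, and Cyc1. Names joined by a comma in a row that several genes share were left out, and Ndufb6, found only in a row joined with Topors, is thus no member. This gave 94 genes of the 29043 symbols that stood alone in a row of at least 1 table, with 43 for complex I, 4 for complex II, 9 for complex III, 21 for complex IV and 17 for complex V. No member passed the test between manipulated and untreated rats, and the family as a whole lay close to the shift that most tested genes showed. The largest single difference, in Cox6c, rested on 2 of the 3 manipulated libraries.

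Oxidative phosphorylation takes place in the inner membrane of the mitochondrion. Complexes I and II feed electrons from NADH and succinate into coenzyme Q, complex III passes them to cytochrome c, complex IV hands them to oxygen, and complex V, the ATP synthase, uses the proton gradient that complexes I, III and IV build to make ATP. A core of subunits is encoded by the mitochondrial genome and all others by nuclear genes, so that the complexes are built from products of both genomes. Neurons draw most of their ATP from this pathway, and several subunits of complex IV have alternative isoforms that are largely kept to heart, skeletal muscle, testis or lung. The mitochondrial genome's own genes were not analysed here.

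All 6 animals were male F344 rats of 18 months, and the tissue was labelled prefrontal cortex. The 3 manipulated rats, replicates 4, 5 and 6, received 7 days of cranial osteopathic manipulation, in which a practitioner works on the head by hand, under isoflurane at 1.5 to 3%. The 3 untreated rats, replicates 1, 2 and 3, had the anaesthesia without the manipulation. Each rat gave 1 library from a coronal section 1 mm thick, so each group holds 3 animals. The values are FPKM, a fragment number corrected for transcript length and library size, and the tables hold no counts, so the depth of each library is unknown.

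The libraries differed in ways that bear on every comparison below. Between 10215 and 11769 symbols reached 1 FPKM, with the lowest number in manipulated 6. Median-ratio scaling, which brings the typical gene to the same level in every library, gave factors from 0.651 in manipulated 6 to 1.33 in untreated 1. Medians of the family and of each complex are given on the deposited scale and after this scaling. Other values are as deposited unless stated to be scaled. Markers of thalamic and hypothalamic neurons should be scarce in cortex. They summed to between 140 and 205 FPKM in untreated libraries and between 15.3 and 79.4 FPKM in manipulated ones. None of the 9 tested markers was at 0 in all libraries, and 6 of the 9 were called lower, or 5 after scaling. Markers of striatal neurons summed to between 45.2 and 69.3 FPKM in untreated and between 77.4 and 199 FPKM in manipulated libraries. Cortical projection neuron markers summed to between 216 and 377 FPKM over the 6 libraries. The thalamic and striatal sums did not overlap between the groups and the cortical sums did. Single genes weighed heavily in these sums. Avp and Oxt gave 23.4 and 46.5 of the 79.4 FPKM in manipulated 6, and Nrgn gave 145 to 264 FPKM of the cortical sums. Of 9 tested cortical markers, 3 were higher, 6 lower and 0 called. Neurod6 had 11.6, 6.51 and 7.22 FPKM in untreated against 2.66, 5.16 and 2.56 FPKM in manipulated libraries, without overlap. The part of these markers in the results below was not tested.

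Subunit genes were among the most abundant messages of the tissue. Of the 94 members, 72 could be tested, which needed a row of their own in every library and a mean of at least 1 FPKM. Their median level over the 6 libraries was 48.5 FPKM, against 4.32 FPKM for all 10657 tested genes. A level above 100 FPKM was reached by 14 of the 72, and by 1.53% of all tested genes. The median was 30.5 FPKM for complex I, 29.2 for complex II, 45.3 for complex III, 97.2 for complex IV and 82.8 for complex V. Behind these medians the order of members was wide, from 1.06 FPKM for Cox4i2, the hypoxia-associated isoform of subunit 4, to 478 FPKM for Cox6c, a small membrane subunit of complex IV. Cox6c led only through manipulated 4 and 6. In untreated rats Atp5me, a membrane subunit of the ATP synthase, was the most abundant at 336 ± 48.7 FPKM (SD, n = 3), followed by Cox6a1 at 272 ± 26.2, Cox4i1 at 255 ± 99.7, Cox7c at 253, Cox8a at 238 ± 26.0 and Cox6c at 235 ± 44.5 FPKM. From Cox6a1 to Cox6c, neighbours in this order differed by less than their SDs.

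Promoters are shown because NRF1 and the ETS factor GABP are the textbook regulators of this gene family. A link between motifs and the levels in these libraries was not tested. The motifs searched were the palindromic NRF1 motif, spelled out in capitals in the stretches below, also with at most 1 mismatch, and GGAAG, an ETS core, on both strands. The capitals hold no GGAAG, so the motifs share no match. The windows ran from 250 bases before to 50 bases after the RefSeq start (build GRCr8) and were found for 81 members. The exact NRF1 motif lay in 6 of the 81 windows (7.41%), against 0.852% of all 33469 windows. With at most 1 mismatch it lay in 23 members (28.4%), against 5.95% of all windows. GGAAG is short enough to be common, and lay in 63 members (77.8%) against 70.1% of all windows. Median GC content was 56.0% in the members' windows and 51.7% in all windows, and its part in the motif counts was not tested. All windows were taken without a filter on gene type, so the comparison was not limited to protein-coding genes. A stretch around an exact match is given for each of the 6 genes, 5′ to 3′ on the gene's strand, with the motif in capitals. Ndufa11 holds 2 overlapping matches, of which the first is in capitals.
Ndufa11, accessory subunit of complex I, chr9:1637492-1637551, plus strand: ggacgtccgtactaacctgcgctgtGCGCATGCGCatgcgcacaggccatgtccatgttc
Ndufaf4, assembly factor of complex I, chr5:43401612-43401671, plus strand: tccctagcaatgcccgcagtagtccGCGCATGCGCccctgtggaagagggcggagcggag
Ndufaf5, assembly factor of complex I, chr3:147961572-147961611, plus strand: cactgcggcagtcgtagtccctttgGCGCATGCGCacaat
Atp5mc2, subunit c gene of complex V, chr7:135678240-135678299, minus strand: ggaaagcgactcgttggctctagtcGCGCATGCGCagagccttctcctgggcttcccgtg
Atp5me, membrane subunit of complex V, chr14:1464759-1464818, plus strand: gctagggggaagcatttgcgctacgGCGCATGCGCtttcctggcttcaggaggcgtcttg
Atp5po, peripheral stalk subunit of complex V, chr11:44657508-44657567, minus strand: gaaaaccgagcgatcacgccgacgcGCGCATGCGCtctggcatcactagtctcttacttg
A match describes the letters of a window and says nothing of binding in these samples.

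Across the family, none of the 72 tested members passed an adjusted p of 0.05 (limma on log2(FPKM + 1), Benjamini-Hochberg over all tested genes), where 9 genes (0.0845%) were called higher and 29 (0.272%) lower. The smallest adjusted p of a member in that limma fit was 0.326. An unadjusted p under 0.05 was reached by 1 member on the higher side, Cox6c, and by 0 on the lower side, against 1.46% and 13.6% of all tested genes. Members with a lower mean in manipulated rats numbered 65 of 72 (90.3%), but so did 87.0% of all tested genes. The median log2 fold change was -0.41 for members and -0.36 for all tested genes. In 12 members (16.7%) all 3 manipulated libraries lay below all 3 untreated ones, against 23.7% of all tested genes, and in 0 they lay above, against 1.08%. In bulk tissue, fewer cells of a type and less RNA per cell cannot be told apart.

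After median-ratio scaling the common shift was gone and the members divided evenly. The median log2 fold change was 0.016 for members and -0.0037 for all tested genes, and 36 of 72 members were below 0, against 50.7% of all genes. Again 0 members were called, where limma called 31 genes (0.291%), of which 10 (0.0938%) were higher and 21 (0.197%) lower. Cox6c was the 1 member at an unadjusted p under 0.05, on the higher side, against 6.46% of all genes higher and 4.80% lower. Groups did not overlap for 2 members, Cox6c, which was higher, and Uqcrc2, which was lower, against 19.9% of all genes in either direction. On this scale the 95% interval of the log2 fold change stayed between -1 and 1 for 60 of 72 members, and on the deposited scale for 15. These intervals are for single genes and are not adjusted for their number. Weighting the libraries by their scatter in limma, on the deposited scale, moved the count on the lower side: 34 of 72 members (47.2%) reached an unadjusted p under 0.05, against 36.7% of all tested genes. There 940 genes (8.82%) and 0 members were called, and the smallest adjusted p of a member was 0.0507. The median log2 fold change was -0.52 for members beside -0.31 for all genes. The weights were 0.86, 0.37 and 1.71 for untreated 1, 2 and 3 and 6.11, 1.29 and 0.23 for manipulated 4, 5 and 6. The weighted manipulated mean thus rested mostly on manipulated 4, which is 1 animal.

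**Figure D1:**
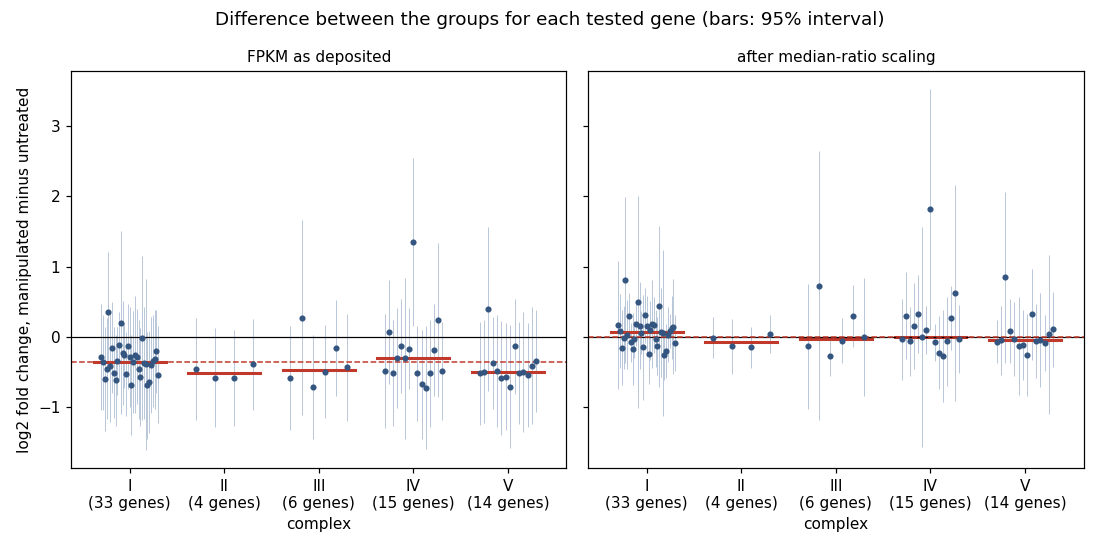
Log2 fold change of manipulated over untreated rats for each of the 72 tested members, by complex, as deposited (left) and after median-ratio scaling (right). Points are genes, bars 95% intervals, solid lines the median of a complex and the dashed line the median of all tested genes, -0.36 on the left and -0.0037 on the right. Cox6c is the point at 1.36 on the left and 1.82 on the right.

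Complex I, the entry point for electrons from NADH, had 33 of its 43 members tested. Its median log2 fold change was -0.36 as deposited and 0.064 after scaling, with 31 of 33 below 0 on the first scale and 12 of 33 on the second. The core subunits, which carry out electron transfer, had the lowest median of its roles, -0.59 over 4 tested genes, and -0.14 after scaling. Ndufs1, the largest iron-sulphur subunit, had 25.7, 16.3 and 28.0 FPKM in the untreated group and 15.5, 18.1 and 9.12 FPKM in the manipulated group. Untreated 2 lay below manipulated 5, so the groups overlapped. The log2 fold change of Ndufs1 was -0.69 (95% interval -1.45 to 0.074, limma adjusted p = 0.330), and -0.26 after scaling. Groups did not overlap for 2 of the 4 core genes as deposited, both lower, against 23.7% of all tested genes lower without overlap. After scaling this held for 0 of the 4. For Ndufv2, one of them, levels were 44.4, 40.6 and 61.7 FPKM in untreated against 34.4, 38.9 and 26.5 FPKM in manipulated rats, a fold change of -0.53 (adjusted p = 0.339). Ndufs3 had a fold change of -0.40 and overlapped.

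Accessory subunits of complex I, which surround the core, had a median of -0.36 over 22 tested genes and 0.085 after scaling. Ndufa1, which is needed for assembly of the membrane arm, was the most abundant, with 166, 289 and 168 FPKM in untreated and 147, 207 and 145 FPKM in manipulated rats. The level in untreated 2 stood apart and that of manipulated 5 exceeded the other untreated levels. Ndufa3 had the largest increase of the complex, with 73.7, 76.1 and 86.7 FPKM against 61.4, 106 and 159.5 FPKM. Its 3 manipulated libraries spanned values below and above all untreated ones, and the log2 fold change of 0.36 had a 95% interval of -0.49 to 1.21 (limma adjusted p = 0.522). Ndufab1, the mitochondrial acyl carrier protein that is also a subunit of complex I, had 40.8, 43.4 and 53.3 FPKM against 26.2, 37.1 and 25.8 FPKM, without overlap. Its log2 fold change was -0.62 (adjusted p = 0.326) and -0.17 after scaling. Groups also did not overlap, with lower manipulated levels, for Ndufb7 and Ndufa9. These were 3 of 22 accessory genes as deposited, against 23.7% of all tested genes, and 0 after scaling. The 7 tested assembly factors, which build the complex and are not part of it, were expressed low, with a median of 3.56 FPKM. Their median fold change was -0.23. Ndufaf1 and Ndufaf6 did not overlap between the groups as deposited, and 0 assembly factors did so after scaling.

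Complex II, succinate dehydrogenase, is the only one of the 5 encoded wholly by nuclear genes, and it is shared with the tricarboxylic acid cycle. All 4 subunit genes were tested and all had lower means in manipulated rats. Their median log2 fold change was -0.52, and -0.071 after scaling. Sdha, the flavoprotein, had 41.3, 30.1 and 46.7 FPKM in untreated and 31.1, 35.1 and 20.1 FPKM in manipulated rats. Sdhb, the iron-sulphur subunit, had 41.0, 34.2 and 56.9 FPKM against 31.7, 32.1 and 22.8 FPKM. Groups overlapped for Sdha and not for Sdhb. The membrane anchor Sdhc had 29.4, 23.9 and 34.3 FPKM against 22.7, 21.8 and 13.6 FPKM, and the second anchor Sdhd 18.5, 15.2 and 21.7 FPKM against 15.3, 16.6 and 10.1 FPKM. Sdhc did not overlap and Sdhd did, by 15.2 against 16.6 FPKM. Lower levels without overlap were thus seen in 2 of 4 genes, against 23.7% of all tested genes, and in 0 after scaling. The log2 fold changes were -0.45 for Sdha, -0.58 for Sdhb, -0.59 for Sdhc and -0.39 for Sdhd, with limma adjusted p from 0.333 to 0.402. After scaling, the 4 values lay between -0.15 and 0.042, and the 95% intervals between -0.52 and 0.31. None of the 4 intervals excluded 0 on either scale.

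Complex III, the cytochrome bc1 complex, had 6 of 9 members tested. The median was -0.46 as deposited and -0.027 after scaling. Uqcr10, a small subunit and the most abundant tested member of the complex, had 94.1, 167 and 142 FPKM in untreated against 73.6, 107 and 82.3 FPKM in manipulated rats. RefSeq also lists its symbol as an older name of a pseudogene, so its reads are uncertain. Uqcrc2, a core protein of the matrix side, had 39.0, 26.4 and 39.9 FPKM against 24.6, 25.5 and 14.1 FPKM. It was the member whose groups were apart on both scales, with a log2 fold change of -0.71 (95% interval -1.45 to 0.030, limma adjusted p = 0.326) and -0.27 after scaling (-0.56 to 0.017, adjusted p = 0.448). Uqcrc1, its partner, had 32.5, 28.0 and 113 FPKM against 48.7, 31.2 and 121 FPKM. One library of each group was thus far above the others, and the fold change of 0.28 had an interval from -1.11 to 1.66. For Uqcrfs1, the Rieske iron-sulphur protein, the fold change was -0.49 (adjusted p = 0.347).

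Complex IV, cytochrome c oxidase, had 15 of 21 members tested, with a median of -0.31 and -0.0014 after scaling. The 10 broadly expressed subunits had medians of -0.48 and -0.030. Cox4i1, the main isoform of subunit 4, had 221, 178 and 368 FPKM in untreated and 188, 212 and 131 FPKM in manipulated rats. Untreated 3 was the highest and manipulated 6 the lowest, and the other 4 lay within 178 to 221 FPKM. Its log2 fold change was -0.49 (95% interval -1.30 to 0.33, limma adjusted p = 0.402) and -0.032 after scaling. Cox7b, a small subunit with the largest decrease of the complex, had 116, 105 and 197 FPKM against 78.5, 121 and 55.8 FPKM. Manipulated 5 lay above untreated 1 and 2, and the fold change was -0.72 (-1.60 to 0.15, adjusted p = 0.333). Cox8a, a small subunit at similar level to Cox4i1, had 226, 221 and 268 FPKM against 198, 261 and 178 FPKM, and its fold change of -0.18 became 0.28 after scaling. Ndufa4, once assigned to complex I and now to complex IV, had 102, 93.3 and 146 FPKM against 76.9, 95.1 and 69.4 FPKM, with a fold change of -0.48. Groups did not overlap for Cox5a, a subunit of the matrix side, and for Cox7a2l, which helps to join complexes III and IV. Both were lower, which made 2 of 15 tested genes, against 23.7% of all tested genes. After scaling 0 of the 15 were lower without overlap. Cox7a2l had 39.7, 32.0 and 44.4 FPKM against 29.8, 31.3 and 19.8 FPKM, with a fold change of -0.52 (adjusted p = 0.343). Cox7a2l2 is a symbol that may stand for Cox7a2, the broadly expressed subunit 7a gene. RefSeq lists Cox7a2l2 as a symbol of its own, so which gene it stands for is uncertain. It was counted among the 10 broadly expressed subunits. Levels of Cox7a2l2 were 84.0, 67.9 and 122 FPKM against 50.9, 74.0 and 44.2 FPKM, which overlap (-0.68, limma adjusted p = 0.332).

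Isoforms that are largely kept to other tissues were at or near the bottom of the family in every library. Cox4i1 made up between 99.2 and 99.7% of the FPKM of the Cox4i pair, Cox6a1 at least 98.8% of the Cox6a pair, and Cox8a between 96.1 and 99.5% of the Cox8 family. Cox6a2, the heart and muscle isoform, had 1.61, 1.83 and 3.13 FPKM in the untreated group, 3.59 and 2.52 FPKM in manipulated 5 and 6, and was listed at 0 in manipulated 4. Cox8b, likewise a muscle isoform, had 3.79, 1.84 and 4.03 FPKM against 1.05, 5.69 and 7.31 FPKM. Both varied more between manipulated libraries than between the groups, with log2 fold changes of -0.31 (limma adjusted p = 0.682) and 0.25 (adjusted p = 0.728). The summed level of 5 skeletal and cardiac muscle markers was between 2.15 and 5.67 FPKM in all 6 libraries, and 1 of the 5 passed the filter on low values. Cox4i2 had 0.769, 0.476 and 1.88 FPKM against 1.53, 0.919 and 0.787 FPKM, and the testis isoform Cox6b2 had 1.57, 0.991 and 1.92 FPKM against 1.26, 1.33 and 0.995 FPKM. Below the filter, Cox7a1 and Ndufa4l2 were at or below 1.28 FPKM in every library, Cox7b2 was above 0 only in untreated 1, at 0.585 FPKM, and Cox8c and Cox6c-ps1 were listed at 0 in all 6.

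**Figure D2:**
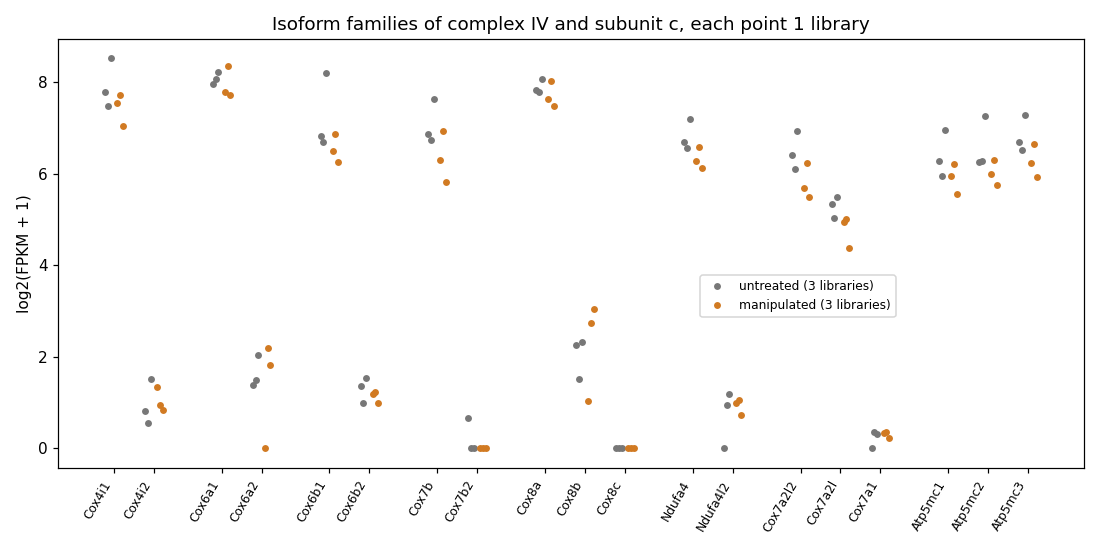
Level of each member of the isoform families of complex IV and of the 3 subunit c genes of complex V, as log2(FPKM + 1), with 1 point for each library, grey for untreated and orange for manipulated rats. The main isoforms lie well above the restricted ones in every family, while the 3 subunit c genes lie at one level.

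Complex V, the ATP synthase, had 14 of 17 members tested, a median of -0.50 and a scaled median of -0.048. The 3 subunit c genes encode the same mature protein, which forms the rotor ring, and differ in their import sequences. Atp5mc3 had 103, 90.7 and 155 FPKM in untreated and 74.8, 99.3 and 59.7 FPKM in manipulated rats. Atp5mc2 had 75.4, 77.3 and 153 FPKM against 63.4, 78.1 and 52.9 FPKM, and Atp5mc1 had 76.5, 61.0 and 123 FPKM against 61.4, 73.2 and 46.1 FPKM. All 3 were highest in untreated 3 and lowest in manipulated 6, with log2 fold changes of -0.56, -0.58 and -0.48 (limma adjusted p of 0.350, 0.358 and 0.399). Within the subunit c message, Atp5mc3 made up 38.7 ± 2.38% (SD, n = 3) in untreated and 38.2 ± 1.20% in manipulated rats, and Atp5mc1 28.4 ± 1.69% and 29.7 ± 0.927%. Neither difference exceeded the SD in untreated rats, while that of Atp5mc1 exceeded the SD in manipulated rats. Atp5f1a, the non-catalytic alpha subunit of the F1 head, had a fold change of -0.52, and Atp5if1, the inhibitor that blocks ATP hydrolysis, -0.37 (adjusted p = 0.417). Atp5me had 281, 373 and 355 FPKM against 279.9, 395 and 255 FPKM, and its fold change of -0.13 became 0.32 after scaling (95% interval -0.33 to 0.97). Atp5md, a small membrane subunit, had the largest decrease, -0.71 (limma adjusted p = 0.337). All its values came from a row of only 308 bases on chromosome 10, 89187167 to 89187474 (Rnor_6.0). RefSeq places the gene, under the name Atp5mk, on chromosome 1 (GRCr8) and lists 2 pseudogenes. The row is thus not at the listed place of the gene, and reads of the gene and of a copy cannot be told apart there.

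The members moved together between libraries, and after scaling more by library than by group. On the deposited scale 50 of 72 members were highest in untreated 3, against 33.7% of all tested genes, and 60 of 72 were lowest in manipulated 6, against 73.4%. Untreated 1 was the highest library for 45.0% of all genes and for only 3 members. The median deviation of 71 members from their own mean was 0.13, -0.034 and 0.55 in untreated 1, 2 and 3 and -0.23, 0.087 and -0.55 in manipulated 4, 5 and 6, on the log2 scale. After scaling these were -0.29, 0.025 and 0.21 against -0.16, 0.086 and 0.073, so that untreated 1 and 3 stood at opposite ends of 1 group. Untreated 1 was then the lowest library for 42 of 72 members, against 18.6% of all genes, and untreated 3 the highest for 34, against 22.4%. The pattern was shared by the complexes: scaled medians in untreated 1 lay between -0.34 for complex V and -0.14 for complex II, and those in untreated 3 between 0.18 for complex I and 0.30 for complex V. The median SD within groups of the scaled members was 0.263, against 0.199 for all tested genes. After scaling the difference between groups exceeded the gene's own SD for 15 of 72 members. As deposited it did so for 43 of 72, with a median SD of 0.353 against 0.316 for all tested genes. The same count over all tested genes was not made on either scale. Summed neuron markers, as deposited, were 779, 917 and 823 FPKM in untreated and 604, 1026 and 377 FPKM in manipulated libraries. Snap25 alone gave 340, 567 and 440 FPKM of the untreated sums and 261, 633 and 155 FPKM of the manipulated ones. The part of these markers in the library pattern was not tested.

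**Figure D3:**
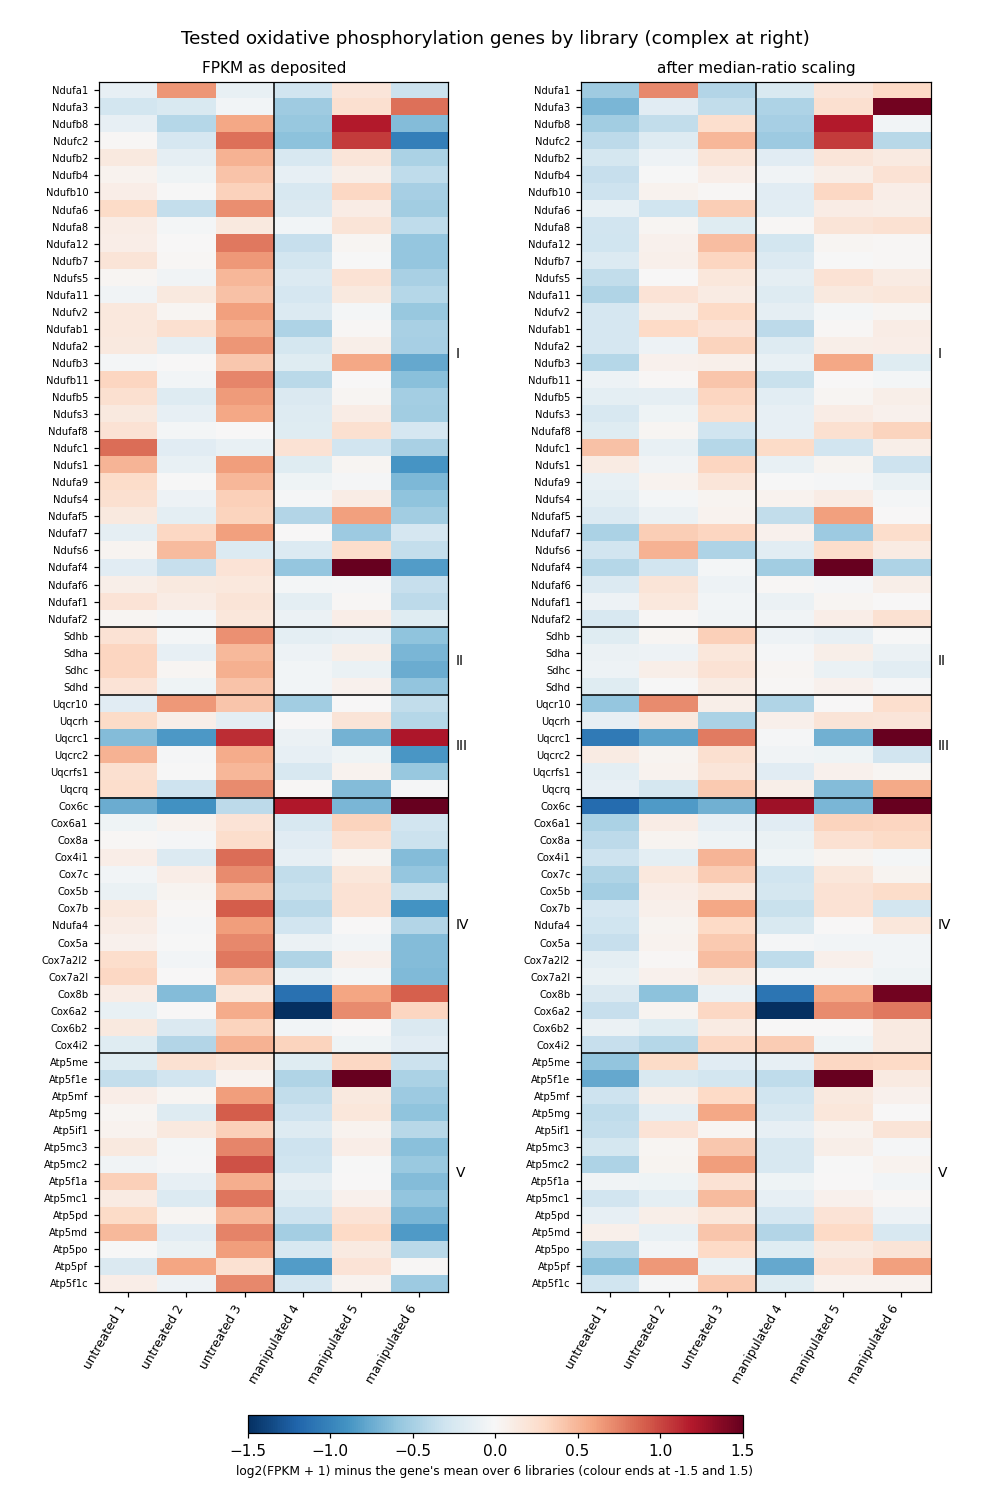
Deviation of 71 of the 72 tested members from their own mean over the 6 libraries, as log2(FPKM + 1), as deposited (left) and after median-ratio scaling (right), ordered by complex and then by level. Columns are libraries, red is above and blue below the mean, and the colours end at -1.5 and 1.5. The column of untreated 3 is red and that of manipulated 6 blue on the left, and the column of untreated 1 is blue on the right.

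A few genes broke this pattern through values in 1 or 2 libraries. Of 432 member values, 11 in 9 genes were more than 2 times the gene's median over libraries. All 11 came from rows that the authors' assembly had built in that library, as did 307 of all 432 values (71.1%). Cox6c, at chromosome 7, 74723179 to 74735650 (Rnor_6.0), had 223, 198 and 285 FPKM in untreated and 858, 232 and 1075 FPKM in manipulated rats. Manipulated 5 lay inside the untreated range, and manipulated 4 and 6 were far above it. The log2 fold change was 1.36 (SE 0.53, 95% interval 0.16 to 2.55, limma adjusted p = 0.326), and 1.82 after scaling (adjusted p = 0.422). Without manipulated 5 it was 2.04 with an adjusted p of 0.0268, the only one of the settings run in which any member was called, and without manipulated 6 it was 0.94 (adjusted p = 0.617).

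The deposited intervals give a measure of the fragments behind each value, if each bound is read as 2 SDs of a Poisson count. That reading has limits. For Uqcrq in manipulated 5, at 9.13 FPKM with an interval from 0 to 64.4, it gave 0.32 fragments. It gave 36.3 for Atp5if1 in untreated 2 and 45.8 for Ndufb5 in manipulated 5, at 1.06 and 1.08 times the gene's median FPKM. An interval need thus not reflect the fragment number alone. By this measure Cox6c rested on 1330 to 1483 fragments in the 4 lower libraries and on 467 and 447 in manipulated 4 and 6, where its FPKM was highest. The same was seen for Atp5f1e, the epsilon subunit of the F1 head, at 640.2 FPKM in manipulated 5 and 159 to 231 FPKM elsewhere, with 594 fragments against 1057 to 2341. For Uqcrc1 the highest value, in manipulated 6, rested on 253 fragments, and that of untreated 3 on 818, against 698 to 2536 in the other 4 libraries. Ndufb8 and Ndufc2, both accessory subunits of complex I, were highest in manipulated 5, at 183 and 132 FPKM, with 434 and 333 fragments against at least 1007 and 619 elsewhere. In these genes the highest FPKM went with fewer implied fragments, and the cause was not tested. Atp5mc2 and Ndufc1 were exceptions, with more implied fragments in the high library than in any other. Leaving out the 9 genes, the 63 other tested members had a median of -0.45 and a scaled median of -0.0093, with 61 below 0 as deposited.

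**Figure D4:**
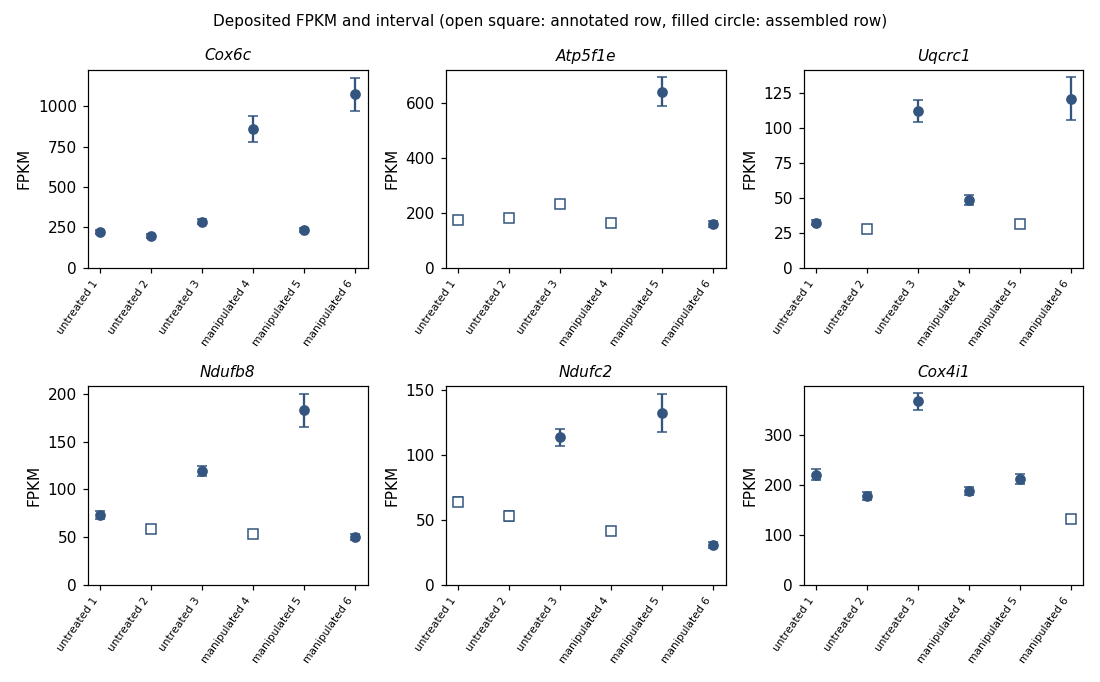
FPKM in each library for 5 members with a value above 2 times the gene's median, and for Cox4i1 as a comparison. Bars are the deposited intervals, open squares rows with an annotation identifier and filled circles rows assembled in that library. Cox6c reaches 858 and 1075 FPKM in manipulated 4 and 6, with wider intervals than in the other 4 libraries.

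The other 22 members could not be tested. In 14 the row was shared with a neighbouring gene in at least 1 library, and in 3 the symbol lay at several places, while 5 were below the filter. Among them are central subunits. Atp5f1b, the catalytic beta subunit of the ATP synthase, had 182 and 133 FPKM in untreated 1 and 2 and 134, 148 and 120.0 FPKM in the manipulated libraries, and shared a row with Pan2 in untreated 3. Cyc1, cytochrome c1 of complex III, had rows of its own in 4 libraries, with 34.3 and 49.5 FPKM in untreated 2 and 3 and 31.7 and 21.6 FPKM in manipulated 5 and 6. Ndufv1, which carries the flavin of complex I, had 36.6 and 28.6 FPKM in untreated 1 and 2 against 24.7, 32.1 and 19.4 FPKM. These ranges overlapped for Atp5f1b and Ndufv1 and did not for Cyc1. The rows of Cox6b1, on chromosomes 1 and 2, summed to 113, 103 and 295 FPKM in untreated and 89.8, 116 and 75.6 FPKM in manipulated libraries, and in untreated 3 the row on chromosome 2 ran over 146208 bases in place of 261. Its row on chromosome 1 alone gave 63.3, 60.3 and 68.0 FPKM against 49.5, 70.5 and 45.8 FPKM, which overlap. For 45 of the 94 members RefSeq lists at least 1 pseudogene, 103 in all, so reads of close copies may be split or added in ways that the tables do not show.

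Other genes of the pathway, from lists chosen by function, also held no called gene. Over all tested genes, as deposited, 0.357% were called in either direction and 87.0% had a log2 fold change below 0. The counts below are to be read against these shares. Of 39 tested assembly factors outside the name rule, 0 were called, 3 were higher and 36 lower, and the median log2 fold change was -0.45, and -0.040 after scaling. All 15 tested genes of coenzyme Q synthesis and the mobile carriers were lower, with a median of -0.49 and -0.12 after scaling, and 0 were called. Cytochrome c, Cycs, had 25.8, 20.9 and 33.2 FPKM in untreated and 16.9, 21.5 and 11.0 FPKM in manipulated rats, a fold change of -0.68 (limma adjusted p = 0.326). The 17 tested genes of the tricarboxylic acid cycle and pyruvate dehydrogenase were all lower, with a median of -0.46, and -0.056 after scaling, and 0 were called. Of 13 tested transcription regulators of respiratory genes, 11 were lower and 0 called, with a median of -0.30 and 0.053 after scaling. Nrf1, which binds the motif printed above, had 2.45, 1.41 and 1.63 FPKM against 2.02, 1.41 and 0.906 FPKM (fold change -0.22, adjusted p = 0.582). The 5 complexes and these 4 lists thus had medians between -0.52 and -0.30 as deposited and between -0.12 and 0.064 after scaling, beside -0.36 and -0.0037 for all tested genes.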

How the data were processed

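Per the file headers, the 6 tables track genes and give FPKM with the bounds of an interval. Per the submitters' processing notes, the authors used STAR 2.7.3a, Cufflinks with no version stated, and the build Rnor_6.0 to make the deposited FPKM. The sources used here do not give the annotation release, whether libraries were stranded, or how RNA was selected. Because FPKM is relative to the library, a change in a few abundant messages moves all others, and reads of overlapping genes cannot be told apart without strand.

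Rows of a symbol were summed per library. Of 30076 symbols, 26641 were kept, after leaving out 3254 whose row named another gene too, 184 found at several places, 32 absent from a table and 5 with a failed status. Those averaging 1 FPKM or more, 10657 symbols, entered limma 3.58.1 (R 4.3.3) as log2(FPKM + 1), with a mean-variance trend, two-sided, with Benjamini-Hochberg adjustment over all of them. A log2 fold change is the manipulated minus the untreated mean on this scale, and understates the change of low genes. On simulated data with 10657 genes and groups of 3, limma recovered 10.8% of the genes shifted by 1 (log2) and 73.2% of those shifted by 2, with 3.4 false calls on average. Tables and figures used matplotlib 3.10.9, numpy 2.4.6 and pandas 2.3.3 under Python 3.11.15. Deposited starts count from 0, checked on miRNA rows, of which 276 of 293 then had the RefSeq hairpin length, and positions are given counted from 1. Sequences and pseudogene names are from RefSeq, GRCr8.

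The members and lists were chosen with earlier results of these data known. Genes named are all complex II genes, the isoform families, members with an unadjusted p under 0.05 (up to 12 with the smallest p on each scale), and in each complex the most abundant member and the largest increase and decrease. Any other gene named was chosen after its values were seen. For 1 member, which counts in the totals, values are not reported here. Alternatives covered the pseudocount, filter, scaling, variance model, library weights, symbols kept and each library left out.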

Additional observations from a re-analysis of the deposited data

How the results depend on the processing

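Under the median-ratio and upper-quartile scalings, groups did not overlap for 2 of 72 members each, 1 higher and 1 lower. Of all 10657 genes, 1070 and 976 were higher without overlap, and 1050 and 1141 lower. The median of members was 0.016 and 0.0006, with -0.0037 and -0.019 for all genes. Signs turned under these scalings for Atp5me (0.32 and 0.30), Cox6a1 (0.33 and 0.31), Cox6b2 (0.098 and 0.087), Cox8a (0.28 and 0.26), Ndufa1 (0.17 and 0.15) and Sdhd (0.042 and 0.024). With library weights, limma called 940 genes and 0 members, with 34 members at an unadjusted p under 0.05 on the lower side in place of 0, and Atp5f1e was -0.012, Cox8b -0.82, Ndufa3 -0.23 and Uqcrc1 -0.50. The calls over all genes were 20 without a filter, 84 with a robust variance prior, 6 over the 802 symbols with annotated rows in all libraries and 8 over these after scaling. The annotated set held 4 members. As deposited, 1 of them was lower without overlap, against 97 of the 802 symbols, and 0 higher, against 54. After scaling 0 were without overlap, against 71 lower and 78 higher of the 802 symbols. The scaled median of the 4 members was -0.042 beside -0.0041 for all genes of the set.

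With untreated 3 and manipulated 6 left out together, an alternative added after the data were seen, as were the annotated rows and leaving out libraries after scaling, Atp5me was 0.040, Cox4i1 0.011, Cox6a1 0.055, Cox6b2 0.022 and Cox8a 0.024. With each library left out in turn, on either scale, 14 to 71 genes and 0 to 1 member were called. Members without overlap numbered 3 to 54. As deposited and without untreated 2, 34 of 72 members were lower without overlap, against 6171 of 10697 genes, and 0 higher, against 176. As deposited and without manipulated 5, 53 of 72 members were lower without overlap, against 4389 of 10694 genes, and 1 higher, against 178. The median of members ran from -0.60 to 0.13 and that of all genes from -0.47 to 0.0016. Signs turned within the ranges for Atp5f1e (-0.27 to 1.26), Atp5mc1 (-0.70 to 0.19), Atp5mc2 (-0.76 to 0.15), Atp5mc3 (-0.75 to 0.059), Atp5me (-0.32 to 0.55), Cox4i1 (-0.71 to 0.21), Cox4i2 (-0.13 to 0.41), Cox6a1 (-0.33 to 0.50), Cox6a2 (-0.74 to 0.75), Cox6b2 (-0.32 to 0.18), Cox8a (-0.34 to 0.40), Cox8b (-0.14 to 1.33), Ndufa1 (-0.46 to 0.57), Ndufa4 (-0.61 to 0.11), Sdha (-0.63 to 0.070), Sdhb (-0.74 to 0.010), Sdhd (-0.51 to 0.11), Uqcr10 (-0.82 to 0.19) and Uqcrc1 (-0.26 to 1.29). The cause of these turns was not tested. The median of members minus that of all genes was -0.046, and moved to -0.21 with library weights, -0.22 without a filter and 0.13 after scaling without untreated 3.

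No paired analysis was possible because the groups share no replicate number. The tables hold no counts, so the limit that depth sets on a single value is unknown.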
